A study of Rattus norvegicus with 12 samples.

Results

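Voltage-gated calcium channel subunits were examined in the dorsal root ganglion, which holds the cell bodies of sensory neurons next to the spinal cord. They were taken as all probe sets of the array that the platform annotation assigns to 1 of 10 genes: 5 that encode the pore (Cacna1a, Cacna1b, Cacna1c, Cacna1d and Cacna1h) and 5 that encode auxiliary subunits (Cacna2d1, Cacnb1, Cacnb3, Cacnb4 and Cacng2). These are 18 of the 15866 probe sets tested, 12 for pore and 6 for auxiliary subunits, and 10 of 10411 named genes. The study used adult male Sprague Dawley rats of 180 to 300 g, from the genetic sub-lines High Pain (HP) and Low Pain (LP). Total RNA of the L4/L5 ganglia was hybridised to 12 Affymetrix arrays, 3 in each of 4 groups. The groups were HP rats 3 days after spinal nerve ligation (SNL), HP rats after sham surgery, LP rats 3 days after SNL, and LP rats after sham surgery. In SNL, used to model neuropathic pain, the L4 and L5 nerves are tied, and the sham operation left them undamaged. The labels give no age, do not say whether an array holds 1 animal or a pool, and give no day for the sham groups. The p-values set differences between groups against the spread of arrays within a group. Since separate animals are not stated, that spread may be only technical.

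A voltage-gated calcium channel opens when the membrane depolarises and lets calcium into the cell. The pore subunit sets the current type: Cacna1c and Cacna1d form L-type channels, Cacna1a the P/Q-type, Cacna1b the N-type and Cacna1h a low-threshold T-type. The beta subunits (Cacnb genes) bind the pore from inside the cell and help it to reach the membrane. The α2δ subunits are extracellular proteins that promote trafficking, and the product of Cacna2d1 is the binding site of gabapentin and pregabalin. Cacng2 encodes stargazin, which is named as a gamma subunit and is best known as an auxiliary protein of AMPA-type glutamate receptors. In sensory neurons N-type channels trigger transmitter release at the central terminals, and T-type channels shape firing near threshold.

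The 250 bases before the start of transcription are shown for the 3 subunit genes with the clearest changes after ligation, Cacna2d1 and Cacna1c, which rose, and Cacng2, which fell. They were read from RefSeq on the rat build GRCr8, where 7 of the 10 genes had an entry. Each is written 5′ to 3′ on the strand of the gene, and capitals mark a motif match on either strand.
Cacna2d1 promoter, chr4:20330148-20330397, minus strand: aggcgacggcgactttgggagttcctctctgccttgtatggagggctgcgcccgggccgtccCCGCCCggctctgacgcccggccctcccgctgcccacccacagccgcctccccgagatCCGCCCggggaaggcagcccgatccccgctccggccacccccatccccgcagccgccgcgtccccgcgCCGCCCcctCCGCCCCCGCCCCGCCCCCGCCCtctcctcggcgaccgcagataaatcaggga
Cacna1c promoter, chr4:154051749-154051998, minus strand: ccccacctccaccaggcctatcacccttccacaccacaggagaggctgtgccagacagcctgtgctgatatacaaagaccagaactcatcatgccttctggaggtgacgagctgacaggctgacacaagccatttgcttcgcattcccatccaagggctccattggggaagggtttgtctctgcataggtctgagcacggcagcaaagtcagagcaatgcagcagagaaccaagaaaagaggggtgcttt
Cacng2 promoter, chr7:111577758-111578007, minus strand: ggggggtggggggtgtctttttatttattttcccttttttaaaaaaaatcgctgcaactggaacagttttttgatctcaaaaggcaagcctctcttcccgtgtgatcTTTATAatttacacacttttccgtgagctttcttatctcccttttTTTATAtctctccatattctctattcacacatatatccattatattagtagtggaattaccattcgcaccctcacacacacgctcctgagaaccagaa
The motifs searched were an AP-1 site (TGANTCA), a cyclic AMP response element (TGACGTCA), a GC box (GGGCGG) and a TATA box (TATAAA). The Cacna2d1 window, at the farthest upstream of its 3 starts in the table, held 7 GC boxes, some of them overlapping, and was 77.2% G and C. The Cacna1c window held none of the 4 motifs and was 54.4% G and C. The Cacng2 window held 2 TATA boxes and was 38.4% G and C. Among 33465 promoter windows of the same length, 30.5% held a GC box, 12.9% a TATA box, 6.34% the AP-1 letters and 1.59% the response element. The 3 windows thus differed in base composition and shared no motif. GC boxes were not particular to Cacna2d1: the Cacna1d window held 9, those of Cacnb3 and Cacna1b 3 each, and that of Cacna1a 1. These windows were 88.8%, 76.4%, 72.0% and 76.8% G and C, in that order. None of the 7 windows of subunit genes with an entry held the AP-1 or response element letters, whether the gene rose, fell or was not called. Most promoter windows lack these letters too, so their absence sets no subunit apart. A match is a description of the letters and not a measured site.

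The tissue label was checked with marker genes. All 14 measured sensory neuron markers had a probe set above the median of the table, as had 9 of 10 Schwann and satellite glia markers, against 0 of 5 central nervous system glia markers. Such a probe set was also found for 8 of 10 macrophage, 4 of 8 smooth muscle and pericyte, and 4 of 13 skeletal muscle markers. The summed neuron signal was 68243.2 to 73071.8 on HP SNL arrays against 81148.2 to 84769.7 on HP sham arrays, and 62831.7 to 68975.9 on LP SNL arrays against 77995.0 to 84555.3 on LP sham arrays. The macrophage sum was 8816.9 to 10044.5 on HP SNL arrays against 3990.2 to 4400.1 on HP sham arrays, and 8247.9 to 9610.3 on LP SNL arrays against 3785.9 to 4064.1 on LP sham arrays. Of the neuron markers 6 of 14 fell in each line and none rose, and of the macrophage markers 8 of 10 rose in each line. Of the Schwann and satellite glia markers 3 of 10 rose in each line, of the skeletal muscle markers 3 of 13 fell in HP rats and 0 in LP rats, and of the central glia markers none was called in either line. Over all genes, 12.8% had a called probe set in HP rats and 14.3% in LP rats. The beta-actin 3′ to 5′ signal ratio, a measure of RNA integrity, was 1.118 to 1.342 on HP SNL arrays against 1.483 to 1.847 on HP sham arrays, and 1.113 to 1.125 on LP SNL arrays against 0.9931 to 1.877 on LP sham arrays. The skeletal muscle sum was 9318.2 to 9894.3 on HP SNL arrays against 12055.7 to 13652.4 on HP sham arrays. In LP rats it was 9302.8 to 9986.9 on SNL arrays against 10612.8 to 11040.7 on sham arrays. Every LP sham sum of this list lay below every HP sham sum. The neuron, macrophage and skeletal muscle sums did not overlap between SNL and sham in either line. The actin ratio did not overlap in HP rats but did in LP rats. The part of these measures in the results below was not tested except where the actin ratio was entered as a covariate. In bulk tissue, fewer cells of a type and less RNA per cell cannot be told apart.

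Ligation changed the subunits in both directions. Cacna2d1 and Cacna1c rose in both lines, Cacng2 and Cacnb3 fell in both, and Cacna1b fell in LP rats. Signals are linear intensities, differences are SNL minus sham on the scale of log2(signal + 1) with the SE, and a change was called at an adjusted p under 0.05 by limma over all probe sets. In HP rats 4 of 18 subunit probe sets were called, 2 higher and 2 lower, where 10.8% of all probe sets were called, 5.42% higher and 5.34% lower. In LP rats 5 of 18 were called, 2 higher and 3 lower, where 12.1% of all were called, 6.35% higher and 5.76% lower. Averaged over the lines, 6 of 18 were called, 2 higher and 4 lower, where 21.0% of all were called, 10.9% higher and 10.1% lower. Arrays of SNL and sham did not overlap for 6 of 18 subunit probe sets in HP rats and 5 of 18 in LP rats, which is close to the 31.5% and 29.0% of all probe sets for which this held. Each called probe set was of a different gene, so 4, 5 and 6 of the 10 genes were called, where 12.8%, 14.3% and 24.6% of all genes had a called probe set. The median difference of the subunit probe sets averaged over the lines was -0.15, where that of all probe sets was 0.01. The subunits as a group therefore did not shift one way: the auxiliary genes gave 1 increase and 2 decreases in each line, and the pore genes gave 1 increase in HP rats and 1 increase and 1 decrease in LP rats.

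**Figure D1:**
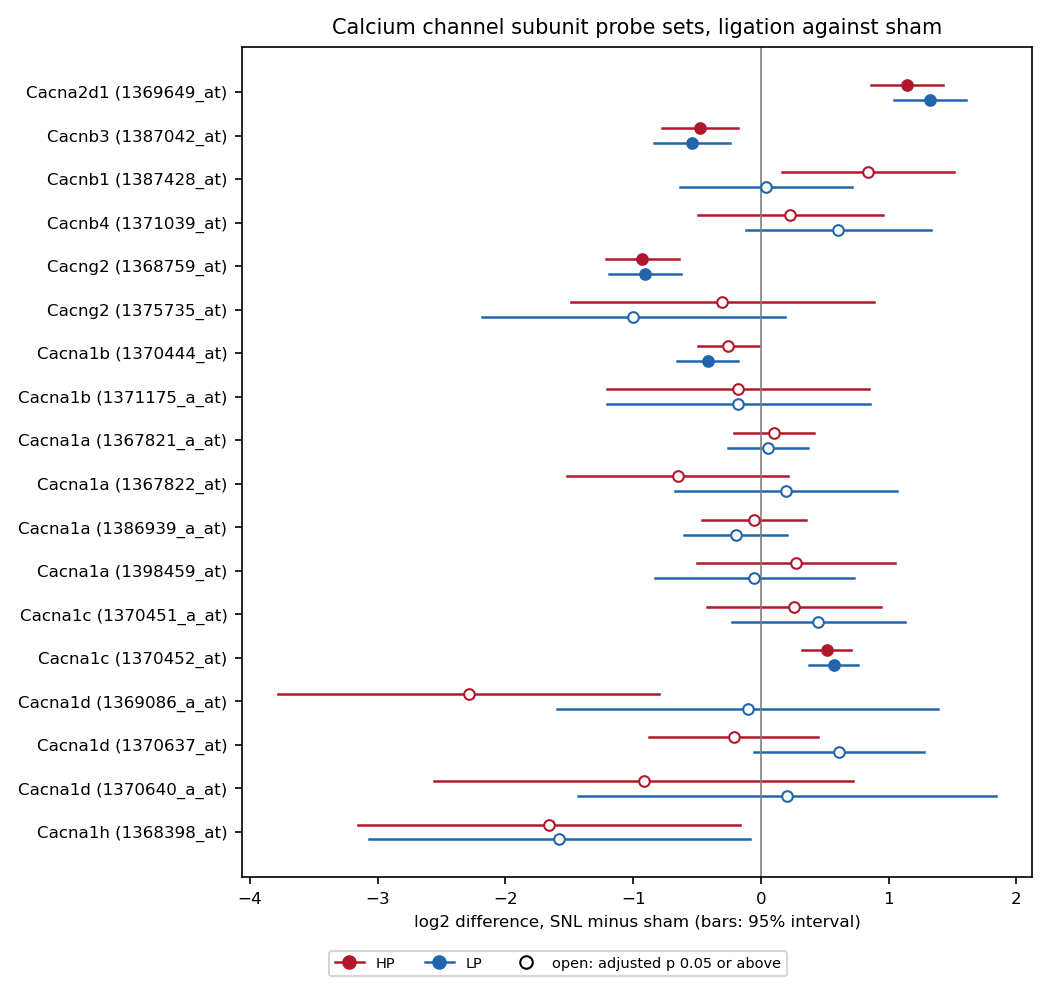
Log2 differences, SNL minus sham, for the 18 subunit probe sets in HP and LP rats; points are estimates from limma, bars are 95% intervals, and filled points have an adjusted p under 0.05. Cacna2d1 and one Cacna1c probe set lie right of 0 in both lines, one Cacng2 probe set and Cacnb3 lie left of it, and the widest intervals belong to dim probe sets of Cacna1d and Cacna1h.

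Cacna2d1, the α2δ subunit bound by gabapentin, had the largest increase among the subunits in both lines. Its probe set had signals of 1924.8, 2610.2 and 2167.7 on HP SNL arrays against 970.2, 970.1 and 1075.9 on HP sham arrays. In LP rats it had 3203.1, 2841.8 and 2941.8 on SNL arrays against 1150.8, 1324.5 and 1117.4 on sham arrays. Every SNL array lay above every sham array, and the 4 groups did not overlap each other: LP SNL was the highest, then HP SNL, LP sham and HP sham. The means were 2234 ± 348 in HP SNL and 1005 ± 61.1 in HP sham, and 2996 ± 187 in LP SNL and 1198 ± 111 in LP sham (SD, n = 3 each). The log2 difference was 1.14 ± 0.13 in HP rats, or 2.21-fold (limma, adjusted p = 0.000742), and 1.32 ± 0.13 in LP rats, or 2.50-fold (adjusted p = 0.000242). Averaged over the lines it was 1.23 ± 0.09 (adjusted p = 1.81e-05). The call held in all 24 alternatives tried in each line, with differences of 1.02 to 1.24 in HP rats and 1.28 to 1.40 in LP rats, the actin covariate and each left-out array included. Cacna2d1 had 1 probe set, so the alternatives by brightest or mean probe set could not set it against a second. On these same SNL arrays the summed macrophage and smooth muscle markers were higher, and the summed neuron and skeletal muscle markers were lower. The part of these cells in the Cacna2d1 result was not tested.

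**Figure D2:**
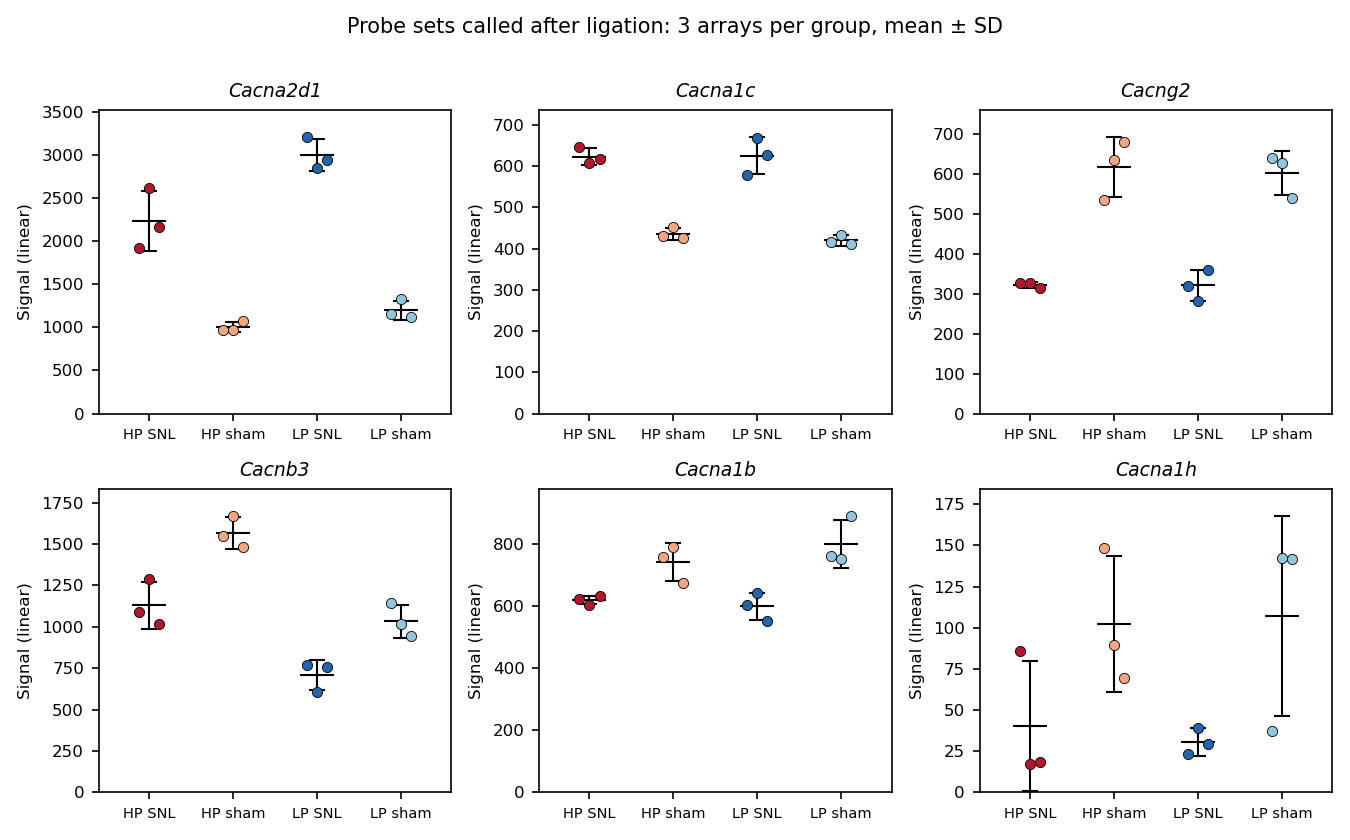
Linear signal on each array (points) with group mean ± SD (bars, n = 3) for 1 probe set each of Cacna2d1, Cacna1c, Cacng2, Cacnb3, Cacna1b and Cacna1h in HP SNL, HP sham, LP SNL and LP sham. Within each line, SNL arrays lie above sham arrays for Cacna2d1 and Cacna1c and below them for Cacng2, Cacnb3 and Cacna1b, and SNL and sham overlap for Cacna1h.

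Among the other auxiliary subunits, Cacng2 and Cacnb3 fell, and Cacnb1 and Cacnb4 did not pass the test. The brighter Cacng2 probe set had 326.2, 326.7 and 313.9 on HP SNL arrays against 533.6, 635.8 and 680.2 on HP sham arrays. In LP rats it had 320.6, 283.0 and 359.8 on SNL arrays against 639.6, 627.2 and 540.5 on sham arrays. Every SNL array lay below every sham array of either line, and the signal was close to halved. The log2 difference was -0.93 ± 0.13 in HP rats (adjusted p = 0.00186) and -0.91 ± 0.13 in LP rats (adjusted p = 0.00157), or 1.90-fold and 1.88-fold lower. A second, dimmer Cacng2 probe set was not called, at -0.30 ± 0.53 in HP rats (adjusted p = 0.80) and -1.0 ± 0.53 in LP rats (adjusted p = 0.292). It correlated with the brighter one at r = 0.384 over the 12 arrays, which share the ligation groups, and with the mean of both the call in HP rats was lost at -0.61 (adjusted p = 0.173).

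Cacnb3, a beta subunit found with N-type channels in neurons, fell by less. Its signals were 1086.6, 1287.2 and 1016.6 on HP SNL arrays against 1549.0, 1667.7 and 1481.7 on HP sham arrays. In LP rats they were 771.0, 607.8 and 756.2 on SNL arrays against 1142.3, 1015.6 and 943.3 on sham arrays. SNL and sham did not overlap within a line, and the LP sham arrays reached into the range of the HP SNL arrays. The log2 difference was -0.48 ± 0.13 in HP rats (adjusted p = 0.0487) and -0.54 ± 0.13 in LP rats (adjusted p = 0.026). Averaged over the lines it was -0.51 ± 0.09 (adjusted p = 0.00356), a call that held in all 23 alternatives. Within a line the call was less firm: it was lost in 13 of 24 alternatives in HP rats (adjusted p 0.0189 to 0.234) and in 7 of 24 in LP rats (0.0083 to 0.097). In HP rats these included leaving out HP SNL replicate 1 or 3 (adjusted p = 0.121 and 0.151), HP sham replicate 1, 2 or 3 (0.12, 0.136 and 0.0912), LP SNL replicate 1 or 3 (0.0607 and 0.0651), LP sham replicate 2 or 3 (0.0691 and 0.0553), and the actin covariate (-0.35, adjusted p = 0.234). In LP rats they included leaving out LP SNL replicate 2 or 3 (0.0802 and 0.0511) or LP sham replicate 1 or 2 (0.0866 and 0.0642), and the actin covariate (0.0505).

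The other beta subunits were in the dimmest 25% of probe sets. Cacnb1, known as the beta subunit of skeletal muscle channels and present in neurons too, had 34.2, 68.7 and 27.6 on HP SNL arrays against 22.8, 16.9 and 27.6 on HP sham arrays. LP SNL arrays had 21.4, 24.6 and 21.4 against 26.4, 20.7 and 18.9 on LP sham arrays. One HP SNL array, replicate 2, stood well above all others, and SNL and sham overlapped in both lines. The differences were 0.84 ± 0.30 in HP rats (adjusted p = 0.114) and 0.04 ± 0.30 in LP rats (adjusted p = 0.958). Cacnb4, a beta subunit of the brain, had 91.3 to 128.1 on HP SNL arrays against 70.8 to 101.8 on HP sham arrays, and 104.3 to 177.8 on LP SNL arrays against 51.7 to 127.6 on LP sham arrays, so SNL and sham overlapped in each line. Its differences of 0.23 ± 0.32 and 0.61 ± 0.32 were not called (95% intervals -0.49 to 0.96 in HP rats and -0.12 to 1.33 in LP rats).

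Among the pore subunits, Cacna1c rose. Its called probe set had 646.3, 607.8 and 616.5 on HP SNL arrays against 429.8, 452.7 and 426.4 on HP sham arrays. In LP rats it had 579.2, 668.8 and 628.3 on SNL arrays against 415.9, 434.3 and 410.2 on sham arrays. Every SNL array lay above every sham array of either line, and the arrays of a group lay close together, with a within-group SD of 0.0651 log2 units, the lowest of the 18 probe sets. The differences were 0.51 ± 0.09 in HP rats (1.43-fold, adjusted p = 0.00501) and 0.57 ± 0.09 in LP rats (1.49-fold, adjusted p = 0.00239). A dimmer Cacna1c probe set was not called, at 0.26 ± 0.30 and 0.45 ± 0.30 (adjusted p = 0.672 and 0.421), and with the mean of both the call was lost in each line at 0.39 and 0.51 (adjusted p = 0.168 and 0.0666). Cacna1c also forms the L-type channel of smooth muscle. The summed signal of 8 smooth muscle and pericyte markers was 2923.7 to 3292.3 on HP SNL arrays against 2265.5 to 2683.8 on HP sham arrays. It was 3468.8 to 3581.5 on LP SNL arrays against 2209.4 to 2445.3 on LP sham arrays. Of the 8 markers 1 rose in HP rats and 3 in LP rats, where 12.8% and 14.3% of all genes were called in either direction. The HP count is thus near the share over all genes. The part of such cells in the Cacna1c result was not tested.

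Cacna1b, the N-type pore, had a smaller difference of the opposite sign. Its brighter probe set had 624.0, 605.7 and 633.1 on HP SNL arrays against 759.7, 792.5 and 674.5 on HP sham arrays. In LP rats it had 604.1, 642.6 and 553.9 on SNL arrays against 763.5, 752.3 and 890.8 on sham arrays. SNL lay below sham without overlap in both lines. The fall was called in LP rats at -0.42 ± 0.11 (adjusted p = 0.0301) and averaged over the lines at -0.34 ± 0.07 (adjusted p = 0.00984), while in HP rats the value was -0.25 ± 0.11 (adjusted p = 0.174). The LP response did not pass a test of its difference from the HP response (-0.16 ± 0.15, adjusted p = 0.984). The call in LP rats was lost in 7 of 24 alternatives (adjusted p 0.0139 to 0.489), including without LP SNL replicate 1 or 3 (0.0792 and 0.11), LP sham replicate 1 or 3 (0.0529 and 0.0858), and with the mean of both probe sets (-0.30, 0.489). The dim second probe set gave -0.18 ± 0.46 in HP rats and in LP rats alike. The call averaged over the lines was lost in 1 of 23 alternatives, the mean of both probe sets (-0.26, adjusted p = 0.323).

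Cacna1h, a T-type pore of small and medium sensory neurons, was measured by 1 dim probe set and was called only in the average over the lines. It had 85.6, 17 and 18.4 on HP SNL arrays against 148.6, 89.5 and 69.3 on HP sham arrays. In LP rats it had 23.1, 39.4 and 29.3 on SNL arrays against 37.2, 142.4 and 141.8 on sham arrays. One array in each line broke the separation, HP SNL replicate 1 and LP sham replicate 1. The average difference was -1.62 ± 0.47 (adjusted p = 0.0358), with -1.66 ± 0.67 in HP rats (adjusted p = 0.159) and -1.58 ± 0.67 in LP rats (adjusted p = 0.178). The averaged call was lost in 10 of 22 alternatives (adjusted p 0.0062 to 0.083). These included leaving out HP SNL replicate 2 or 3 (0.0814 and 0.0813), HP sham replicate 1 or 2 (0.083 and 0.0626), LP SNL replicate 1, 2 or 3 (0.08, 0.0505 and 0.0696), or LP sham replicate 2 or 3 (0.0813 and 0.0767). Without HP SNL replicate 1 the HP difference was -2.40 and was called (adjusted p = 0.0347).

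Cacna1d, an L-type pore that opens at lower voltages than Cacna1c, had 3 probe sets, and none was called in either line. The one with the largest difference (a dim one) had 10.8, 4.8 and 39.1 on HP SNL arrays against 83.0, 62.1 and 59.2 on HP sham arrays. In LP rats it had 55.3, 48.5 and 67.8 on SNL arrays against 25.1, 100 and 89.1 on sham arrays. HP SNL lay below HP sham without overlap, while LP SNL lay inside the LP sham range. The difference was -2.29 ± 0.67 in HP rats (adjusted p = 0.0571) and -0.10 ± 0.67 in LP rats (adjusted p = 0.952). In HP rats it was called in 5 of 21 alternatives, including without HP SNL replicate 3 (-3.05, adjusted p = 0.0133) and without LP sham replicate 1 (adjusted p = 0.0339). With the mean of the 3 probe sets Cacna1d was called in HP rats (-1.14, adjusted p = 0.0444). The brightest Cacna1d probe set gave -0.21 ± 0.30 in HP rats and 0.61 ± 0.30 in LP rats, and the third gave -0.92 ± 0.73 and 0.20 ± 0.73. The 3 probe sets correlated with each other at r between -0.199 and 0.502 over the 12 arrays.

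Cacna1a, the P/Q-type pore, did not pass the test on any of its 4 probe sets. The brightest averaged 274 ± 20.4 in HP SNL and 256 ± 30.9 in HP sham, and 298 ± 21.5 in LP SNL and 288 ± 45.2 in LP sham (SD, n = 3 each). Its differences were 0.10 ± 0.14 in HP rats (95% interval -0.21 to 0.41) and 0.06 ± 0.14 in LP rats (-0.25 to 0.37). The rest lay between -0.65 ± 0.39 and 0.28 ± 0.35 in HP rats and between -0.20 ± 0.18 and 0.20 ± 0.39 in LP rats, and SNL and sham overlapped on all 4. The intervals of the brightest probe set do not reach the size of the Cacna2d1 response.

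The rise of Cacna2d1 was then set against each other subunit within the same array. Its response averaged over the lines was larger than that of all 17 other subunit probe sets, at an adjusted p under 0.05 for each. The excess was smallest against the called Cacna1c probe set, at 0.69 ± 0.12 log2 units (adjusted p = 0.000195), and largest against Cacna1h, at 2.85 ± 0.50 (adjusted p = 0.000216). It was 2.15 ± 0.11 against the brighter Cacng2 probe set, 1.74 ± 0.11 against Cacnb3 and 1.57 ± 0.13 against the brighter Cacna1b probe set. On the array as a whole, 91.6% of the other 15865 probe sets had a smaller response than Cacna2d1 by the same test and 0.422% a larger one. The count over subunits was thus near the background, and the result concerns Cacna2d1 rather than the subunits it was set against. In HP rats alone the excess over Cacnb1 was not called (0.30 ± 0.26, adjusted p = 0.29). In LP rats alone it was not called over both dim Cacna1d probe sets (1.43 ± 0.68 and 1.12 ± 0.72, adjusted p = 0.0683 and 0.165) and over Cacnb4 (0.72 ± 0.32, adjusted p = 0.0569).

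The lines were next compared within each surgery, a comparison that asks whether Low Pain and High Pain rats differed in these subunits. Cacnb3 was lower and Cacna2d1 higher in LP rats on every array in both surgeries, but no subunit probe set passed the adjusted test in either. LP minus HP, 0 of 18 were called after SNL (background 0.145%) and 0 after sham surgery (0.0441%) by limma, with 4 and 1 at an unadjusted p under 0.05, where 10.6% and 9.45% of all probe sets had one. For Cacnb3 the difference was -0.67 ± 0.13 after SNL (adjusted p = 0.111) and -0.60 ± 0.13 after sham (adjusted p = 0.21). With trended and robust variance the difference after SNL was called (adjusted p = 0.0362). For Cacna2d1 it was 0.43 ± 0.13 after SNL (adjusted p = 0.285) and 0.25 ± 0.13 after sham (adjusted p = 0.589). Arrays did not overlap between the lines for 5 of 18 subunit probe sets after SNL (background 17.4%) and for 2 of 18 after sham (15.4%).

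Averaging the line difference over both surgeries, a contrast added after the data were seen, called Cacnb3 alone among the 18, where 0.668% of all probe sets were called, 0.403% lower. Its value was -0.63 ± 0.09, or 1.55-fold lower in LP rats (adjusted p = 0.0218). The call was lost in 9 of 23 alternatives (adjusted p 0.0030 to 0.0695). These included the actin covariate (0.069) and leaving out HP SNL replicate 1 or 2 (0.051 and 0.0515), HP sham replicate 1 or 2 (0.0636 and 0.0562), LP SNL replicate 3 (0.052), or LP sham replicate 2 or 3 (0.0512 and 0.0541). The averaged line difference of Cacna2d1 was 0.34 ± 0.09 (adjusted p = 0.132). Cacng2 and Cacna1c gave LP minus HP differences near 0 after SNL, -0.01 ± 0.13 (95% interval -0.29 to 0.27) and 0.00 ± 0.09 (-0.19 to 0.19). Their intervals are narrower than their ligation differences.

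**Figure D3:**
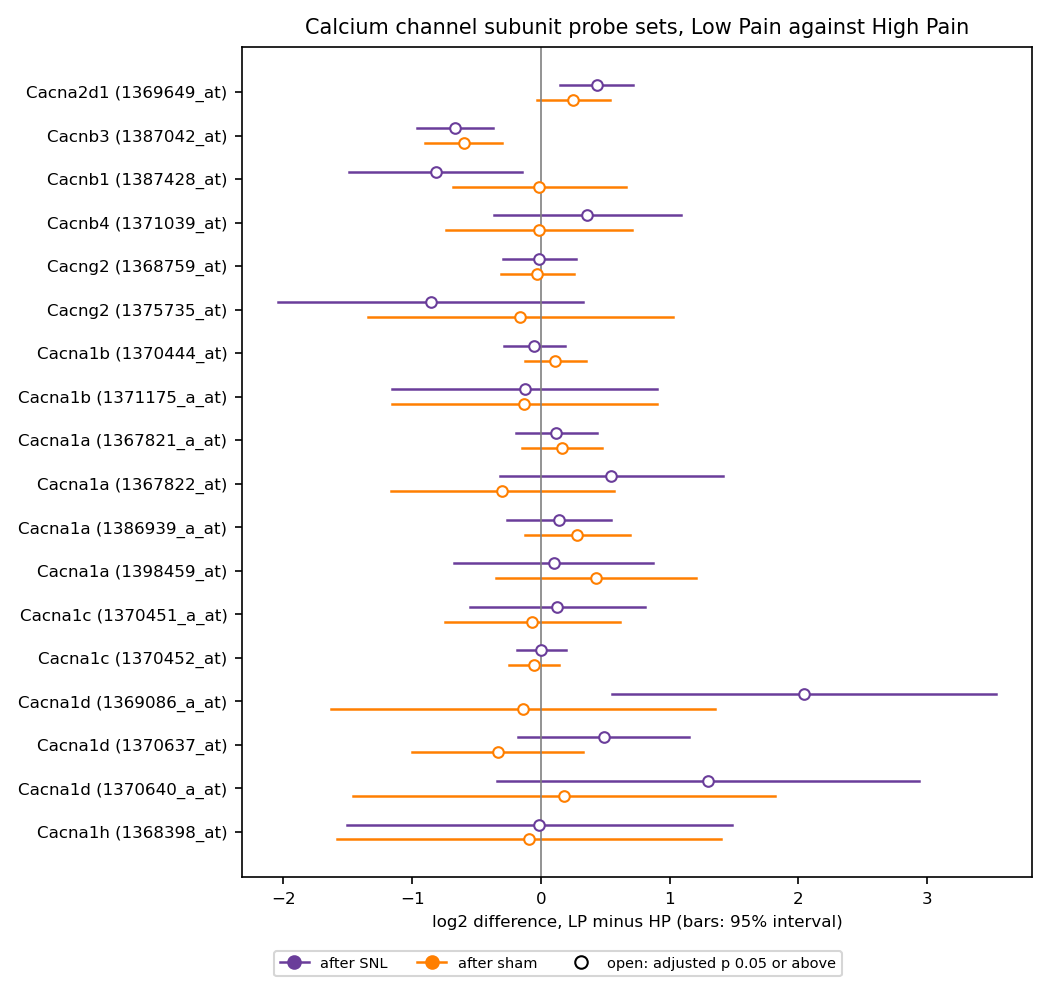
Log2 differences, LP minus HP, for the 18 subunit probe sets after SNL and after sham; points are estimates from limma, bars are 95% intervals, and open points have an adjusted p of 0.05 or above. Cacnb3 lies left of 0 after both surgeries and Cacna2d1 right of it, with no point called.

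Whether the response to ligation itself differed between the lines was tested as the LP response minus the HP response. No subunit probe set was called, nor was any other of the array (0%), and 1 of 18 subunit probe sets and 4.71% of all had an unadjusted p under 0.05. The largest value belonged to the dim Cacna1d probe set described above, at 2.18 ± 0.95 (adjusted p = 0.984). For Cacna2d1 the value was 0.18 ± 0.18 (95% interval -0.22 to 0.58), for Cacng2 0.02 ± 0.18 (-0.38 to 0.42), for Cacnb3 -0.07 ± 0.19 (-0.49 to 0.35) and for Cacna1c 0.06 ± 0.12 (-0.21 to 0.33). For these 4 genes each interval excludes a difference between lines as large as the ligation response of Cacna2d1, and smaller ones are not excluded.

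Of 14 other calcium channel subunit genes on the array, 1 was called, lower, in each line and none was higher, a share below the 12.8% and 14.3% of all genes called. The list's median difference averaged over the lines was -0.04. The gene called was Cacna2d3, another α2δ subunit, which moved opposite to Cacna2d1. It had 428.2, 391.6 and 274.1 on HP SNL arrays against 660.2, 614.5 and 648.8 on HP sham arrays, and 365.3, 303.6 and 307.9 on LP SNL arrays against 814.2, 673.7 and 632.2 on LP sham arrays. SNL lay below sham without overlap in both lines. The differences were -0.84 ± 0.17 in HP rats (adjusted p = 0.0124) and -1.11 ± 0.17 in LP rats (adjusted p = 0.00258), and the averaged response of Cacna2d1 exceeded that of Cacna2d3 by 2.21 ± 0.15. A further 3 gamma subunit genes named by the same rule were not called: averaged over the lines Cacng5 gave -0.80 ± 0.42, Cacng7 gave 0.36 ± 0.23 and Cacng4 gave 0.16 ± 0.16.

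Channel partners and regulators also moved in both directions. Of 27 measured genes, 3 rose and 5 fell in HP rats and 5 rose and 6 fell in LP rats, where 12.8% and 14.3% of all genes were called in either direction, with a median difference of -0.11 averaged over the lines. Rem2, a small GTPase that inhibits calcium channels through their beta subunits, had the largest fall. It had 26.2, 21.2 and 24.8 on HP SNL arrays against 212.5, 274.7 and 281.2 on HP sham arrays, and 22.0, 34.0 and 16.6 on LP SNL arrays against 222.8, 261.4 and 277.0 on LP sham arrays. The differences were -3.35 ± 0.23 in HP rats (adjusted p = 7.07e-05) and -3.39 ± 0.23 in LP rats (adjusted p = 4.14e-05), and the SNL signals were among the dim ones of the table, so the size of the fall is uncertain. A second Rem2 probe set was not called, at -1.05 ± 0.35 in HP rats (adjusted p = 0.0892) and -0.47 ± 0.35 in LP rats (adjusted p = 0.471). Rrad, on the same list, went the other way. It was called higher in LP rats (1.92 ± 0.36, adjusted p = 0.00699) and was not called in HP rats (0.35 ± 0.36, adjusted p = 0.616).

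Thbs4, a thrombospondin, which is a family of matrix proteins that bind the α2δ subunit, rose together with Cacna2d1. It had 812.1, 837.0 and 1179.5 on HP SNL arrays against 436.8, 500.9 and 477.0 on HP sham arrays, and 1085.1, 1281.2 and 1405.3 on LP SNL arrays against 632.9, 553.4 and 642.4 on LP sham arrays. All SNL arrays lay above all sham arrays, and the differences were 0.98 ± 0.16 in HP rats and 1.04 ± 0.16 in LP rats (adjusted p = 0.00427 and 0.00258). Camk2d, a calcium- and calmodulin-dependent kinase subunit, rose by 0.80 ± 0.10 in each line on one probe set (adjusted p = 0.00159 in HP rats and 0.00113 in LP rats). A second was called too (0.61 ± 0.17 and 1.06 ± 0.17, adjusted p = 0.0463 and 0.00329), and the remaining one was not (0.03 ± 0.28 and 0.41 ± 0.28). Gnao1, a G protein alpha subunit of neurons, fell by 0.66 ± 0.14 on the log2 scale in HP rats and fell by 0.92 ± 0.14 in LP rats (adjusted p = 0.0164 and 0.0027). Lrp1, an endocytic receptor that binds α2δ, also rose in both lines, and Cabp1 and Camk2g fell in both. Camk2b was called lower on a different probe set in each line. One had an adjusted p of 0.0381 in HP rats and 0.0506 in LP rats, and the other 0.0991 in HP rats and 0.041 in LP rats.

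**Figure D4:**
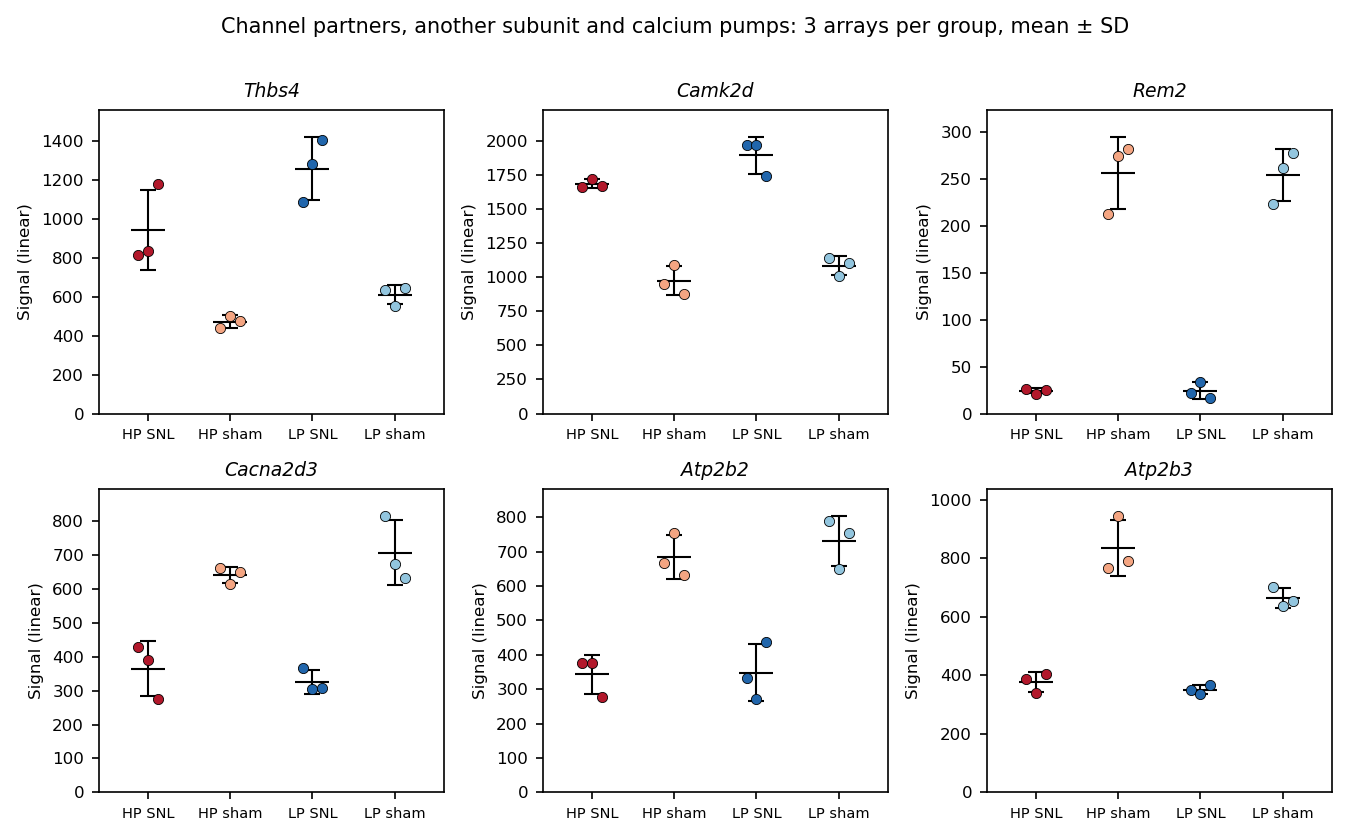
Linear signal on each array (points) with group mean ± SD (bars, n = 3) for Thbs4, Camk2d, Rem2, Cacna2d3, Atp2b2 and Atp2b3 in HP SNL, HP sham, LP SNL and LP sham. SNL arrays lie above sham arrays for Thbs4 and Camk2d and below them for the other 4 genes, in both lines.

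Atp2b2 and Atp2b3, which encode pumps that move calcium out of the cell, fell on at least 1 probe set each in both lines. Of 23 measured genes for calcium stores, pumps and buffers, 3 fell in each line, and 1 rose in LP rats (Calr, a calcium-binding chaperone of the endoplasmic reticulum) and 0 in HP rats. Such a count is near the 12.8% of all genes called in HP rats and the 14.3% called in LP rats. The median difference of this list averaged over the lines was -0.18, where that of all probe sets was 0.01. The Atp2b3 probe set with the smallest p had 389.3, 340.6 and 406.2 on HP SNL arrays against 766.4, 944.2 and 792.3 on HP sham arrays, and 350.9, 335.4 and 365.8 on LP SNL arrays against 701.7, 636.2 and 652.7 on LP sham arrays. Its differences were -1.14 ± 0.11 and -0.92 ± 0.11 (adjusted p = 0.000405 in HP rats and 0.000725 in LP rats). A second Atp2b3 probe set was called in HP rats (-2.45 ± 0.58, adjusted p = 0.0244) and not in LP rats (-0.54 ± 0.58), and the remaining one was not called in either (-0.44 ± 0.67 and -0.11 ± 0.67). One Atp2b2 probe set gave -1.0 ± 0.18 and -1.09 ± 0.18 (adjusted p = 0.00781 in HP rats and 0.00429 in LP rats), and another gave -0.28 ± 0.24 and -0.22 ± 0.24 and was not called. The other plasma membrane pump genes were not called, with -0.16 ± 0.11 and -0.20 ± 0.11 for Atp2b1 and 0.22 ± 0.27 and 0.67 ± 0.27 for Atp2b4, in HP and LP rats. The probe sets of Atp2a2, the pump of the endoplasmic reticulum, disagreed. Averaged over the lines, 2 of its 4 were called lower (-0.55 ± 0.07 and -0.27 ± 0.08, adjusted p = 0.000368 and 0.0304) and 1 was called higher (0.53 ± 0.14, adjusted p = 0.0198). Pvalb, which encodes the calcium buffer parvalbumin, was called only in that average (-0.75 ± 0.18, adjusted p = 0.013), with -0.76 ± 0.25 in HP rats and -0.74 ± 0.25 in LP rats. Pvalb was also on the skeletal muscle marker list and is part of that sum. Which cells its fall came from was not tested.

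Probe sets that followed the subunits most closely over the 12 arrays were then listed by the Pearson correlation of log2 signals. The arrays share the ligation groups, so a high value is common and is given as a description. For Cacna2d1 the 5 named genes most alike were Jun, a transcription factor gene induced by nerve injury (r = 0.982), Cd63, a tetraspanin (0.980), C3, the central complement component (0.979), Mmp2, a matrix metalloproteinase (0.978), and Medag (0.973). Jun averaged 2175 ± 233 in HP SNL and 785 ± 86.1 in HP sham, and 2657 ± 142 in LP SNL and 972 ± 125 in LP sham (SD, n = 3 each), which gives the same order of the 4 group means as for Cacna2d1. The gene most like Cacna1c was Col18a1, a basement membrane collagen (0.990), and the one most like Cacng2 was Ncoa1, a nuclear receptor coactivator (0.983). Cacnb3 was most like Atp5mc3, a subunit of mitochondrial ATP synthase (0.968), and Cacna1b most like Synpr, a synaptic vesicle protein (0.958). For the other 5 subunits the highest value was lower, from 0.894 for Cacna1a and Cacna1d to 0.926 for Cacna1h.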

How the data were processed

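The values deposited by the authors are linear intensities of 15923 probe sets on 12 arrays. RMA is named in the submitters' processing notes, with no version, yet every array has a mean of 500.1 without its lowest and highest 2%, as global scaling would give. Which steps the authors ran is therefore not settled here. The labels' protocols name Qiagen RNeasy extraction and standard Affymetrix labelling. Median signals were 278.4 to 313.2, and within-group correlations of arrays 0.941 to 0.965.

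Values were taken as log2(value + 1), since 109 of 191076 were below 1, so folds of dim probe sets are understated. Names came from the platform annotation, updated through RefSeq: 12783 had 1 symbol, 312 several and 2771 none, and 57 controls were left out. One limma fit (3.58.1, statmod 1.5.0, R 4.3.3) of 4 group means covered 15866 probe sets, with two-sided tests and Benjamini-Hochberg adjustment per contrast at 0.05. Calls for Cacna2d1 against other probe sets used the log2 ratio within each array. The fit was also run on simulated data with noise drawn independently for each probe set, and no call given here rests on that run. Replicate numbers were not used to pair arrays in the main fit, as the titles do not say what a number marks. Same-numbered arrays correlated at -0.173 to 0.112 in their deviations from group means, over 0.1 in 1 of 18 pairs. The deviations sum to 0 within each group, so these correlations cannot exclude a shared animal, litter or day. The number of arrays limits the precision, and groups followed the sample titles.

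The subunits and gene lists were chosen with earlier results of these data known. All 18 probe sets are described. Of the lists of other subunits, partners and calcium handling, the up to 4 genes with the smallest p averaged over the lines are named, and for resemblance the 5 genes most like Cacna2d1 and the 1 most like each other subunit. Lrp1, Rrad, Cabp1, Camk2b, Camk2g, Calr, Atp2b1 and Atp2b4 were named after their values were seen. Alternatives were a block for the replicate number, a filter on the dimmest 25%, quantile normalization, median centring, pseudocounts of 16 and 32, trended and robust variance, array weights, the actin ratio as a covariate, only the arrays compared, the brightest probe set or the mean per gene, and each array left out.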

Additional observations from a re-analysis of the deposited data

How the results depend on the processing

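None of the 126 tested values changed direction in a call in 2809 alternative values: 2747 kept their side of the threshold, 50 lost a call and 12 gained one. Only a called value can lose a call, and few of the 126 were called. These were 4 probe sets in HP rats, 5 in LP rats, 6 averaged over the lines and 1 in the averaged line difference. The share that kept its side therefore says little about how firm the calls are. The 10 subunit genes gave 4 called in HP rats (3 to 5 over the alternatives, 3 to 5 with an array left out) and 6 averaged over the lines (5 to 7). In LP rats 5 were called, and 3 with the replicate block, with only the arrays compared or with probe sets averaged per gene (3 to 5 with an array left out). After SNL, LP against HP called 0, and 1 with trended and robust variance. The line difference averaged over surgeries called 1, and 0 with the replicate block or the actin covariate (0 to 1 with an array left out). Cacna2d1 exceeded 17 other subunit probe sets, or all 10 that were left without the dimmest 25%. With the replicate block, Cacnb3 lost the call in HP and LP rats (adjusted p = 0.0856 and 0.0528), Cacna1b in LP rats (0.0718) and Cacna1h in the average (0.0717), and the block changed the call of no other subunit in the ligation contrasts. Over all probe sets, 1708 were called in HP rats, but 915 with the actin covariate, 1069 with only the arrays compared, and 981 to 1102 without HP SNL replicate 2 or 3 or HP sham replicate 1 or 3. In LP rats 1922 were called, but 834 with only the arrays compared and 1248 without LP SNL replicate 3. Array-wide counts ranged from 1 to 68 for LP against HP after SNL (23 as reported), from 0 to 38 after sham (7), from 23 to 272 for the averaged line difference (106) and from 0 to 3 for the interaction (0). Of the 18 probe sets 7 were among the dimmest 25%, where signal over background limits what can be read.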
